A study of Mus musculus with 11 samples.

Results

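The mouse mitochondrial chromosome encodes 37 genes, which are the genes described here. They are 13 protein genes for subunits of the respiratory chain and ATP synthase, 2 ribosomal RNAs and 22 transfer RNAs. Each protein gene is counted as an mRNA of its own below, although some of them overlap. The 37 were taken as all genes whose symbol starts with mt-. All 37 were found among the 55487 genes of the deposited count tables. Messenger and ribosomal RNAs are given separately throughout. Of the 37, 15 passed the filter on low counts, namely the 13 mRNAs and the 2 rRNAs, and none of the 22 tRNAs did.

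RNA came from the gastrocnemius, a calf muscle, of 11 mice, measured by 3' tag sequencing from 450 ng of total RNA per library with the QuantSeq 3' mRNA FWD kit, which starts reverse transcription from poly(A). The groups were 4 Raptor mTOR double knock-out mice (DKO), 3 Raptor knock-out mice (KO) and 4 wildtype mice (WT). Knock-out mice carried LoxP-flanked Raptor (gene symbol Rptor), and the DKO mice also LoxP-flanked mTOR (Mtor), together with a tamoxifen-inducible Cre (a fusion with a mutated estrogen receptor domain) expressed in muscle fibres from the human skeletal actin (HSA) promoter. All 3 groups, WT included, ate tamoxifen chow for 7 weeks from 3 months of age, and the gastrocnemius was taken 7 months after that treatment began. Raptor is the subunit that sets mTOR complex 1 apart, whereas the mTOR kinase itself acts in both mTOR complexes. The labels do not say whether WT mice carried Cre or LoxP alleles, and they give no sex. Replicate numbers only name the libraries, so p-values measure the spread between these samples.

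Both strands of mitochondrial DNA are transcribed as long polycistronic RNAs by a dedicated polymerase, POLRMT, with the factors TFAM and TFB2M. The tRNAs lie between most of the other genes, and their excision frees the mRNAs and rRNAs. Most mammalian mitochondrial mRNAs then receive a poly(A) tail from MTPAP and are stabilised by the LRPPRC-SLIRP complex, while the rRNAs carry very short A tails. All but one of the mRNAs come from the same strand.

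Stretches of 3 mRNAs are shown beside their copies in the nuclear genome, since the deposited counts were divided between copy and original. Sequences are from the GENCODE M21 transcripts on GRCm38. Capitals mark the single base that differs in the mt-Nd3 pair, T3C counted from the first base of the gene, and in the other pairs the last bases of the mitochondrial gene that the copy's annotation lacks.
mt-Nd3, chrM:9459-9518, plus strand: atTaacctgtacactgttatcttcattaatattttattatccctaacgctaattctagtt
Gm28438, chr1:24613060-24613119, minus strand: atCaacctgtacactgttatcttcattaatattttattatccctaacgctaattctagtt
mt-Nd4l, chrM:10111-10173, plus strand: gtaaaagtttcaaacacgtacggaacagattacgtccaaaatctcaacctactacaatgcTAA
Gm10222, chr1:24612407-24612466, minus strand: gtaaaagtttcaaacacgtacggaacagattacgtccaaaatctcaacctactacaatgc
mt-Atp6, chrM:8545-8607, plus strand: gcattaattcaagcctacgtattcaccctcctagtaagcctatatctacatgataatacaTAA
Gm10925, chr1:24613974-24614033, minus strand: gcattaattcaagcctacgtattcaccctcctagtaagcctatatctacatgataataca

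A second set is shown because oligo(dT) can anneal to runs of A inside a transcript, and it covers the 2 rRNAs and the mRNA with the lowest DKO level relative to WT among those tested with an adjusted p under 0.05. Capitals mark the longest run of A in the gene.
mt-Rnr2, chrM:1463-1519, plus strand: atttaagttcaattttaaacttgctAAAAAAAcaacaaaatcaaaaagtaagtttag
mt-Rnr1, chrM:680-734, plus strand: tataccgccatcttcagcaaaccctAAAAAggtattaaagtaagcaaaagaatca
mt-Nd2, chrM:4027-4084, plus strand: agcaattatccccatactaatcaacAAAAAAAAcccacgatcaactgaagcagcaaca
The longest run was 8 bases in mt-Nd2, 7 in mt-Rnr2 and 5 in mt-Rnr1, and 6 of the 15 genes held a run of 6 or more. Gene tables do not show where in a gene the tags lay, so no count was assigned to these runs.

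Library totals were 2791339 to 3536731 counts in DKO, 3223797 to 3764879 in KO and 3134575 to 6328533 in WT. Rptor averaged 4.81 CPM (counts per 1e+06 counts, scaled by TMM) in DKO and 4.55 in KO, against 9.79 in WT. Mtor averaged 35.7 CPM in DKO, against 20.5 in KO and 20.7 in WT, so the tags of Mtor were not lower in DKO; the exons removed are not given, and 3' tags outside them do not check a deletion. Muscle fibre genes (7, among them Acta1 and Ckm) summed to 77996 to 86928 CPM of the library total in DKO, 76835 to 79004 in KO and 61742 to 77699.6 in WT. Acta1 made up much of that sum, and the members did not move together: in DKO over WT, Acta1 (0.59) and Des (0.52) were called higher and Tnnt3, the fast troponin T, lower (-1.10, all log2), with a list median of -0.06. Xist, which marks female tissue, exceeded 10 CPM in 3 of 4 DKO, 0 of 3 KO and 1 of 4 WT libraries. The deposited counts came in 2 sets named as runs, and the names do not say what a run was. DKO replicates 3 and 4 alone made up the smaller run. All KO and WT libraries were in the larger, so any run difference lies within DKO. In bulk tissue, fewer cells of a type and less RNA per cell cannot be told apart.

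Mitochondrial mRNAs made up a large share of every library, and rRNAs a small and far more variable share. The 13 mRNAs held 20.1%, 23.0%, 21.3% and 24.2% of library counts in DKO, 26.0%, 23.8% and 25.02% in KO, and 25.7%, 26.7%, 23.3% and 29.7% in WT. Exact 95% binomial intervals, which cover counting error only, were within 0.1 percentage points of each value. The DKO range overlapped WT at its upper end, where DKO replicate 4 lay above WT replicate 3. These shares leave out counts assigned to the near-identical nuclear copies described below. With those copies added the shares were 23.0% to 27.3% in DKO, 27.7% to 29.6% in KO and 26.7% to 34.1% in WT. The 2 rRNAs held 1.16%, 0.729%, 2.33% and 1.90% in DKO, 0.585%, 2.75% and 0.470% in KO, and 3.82%, 3.76%, 2.93% and 0.492% in WT. Low rRNA libraries occurred in every genotype: DKO replicates 1 and 2, KO replicates 1 and 3, and WT replicate 4. There were between 6.71 and 60.4 mRNA counts per rRNA count in WT alone, against 9.14 to 31.5 in DKO and 8.65 to 53.2 in KO.

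**Figure D1:**
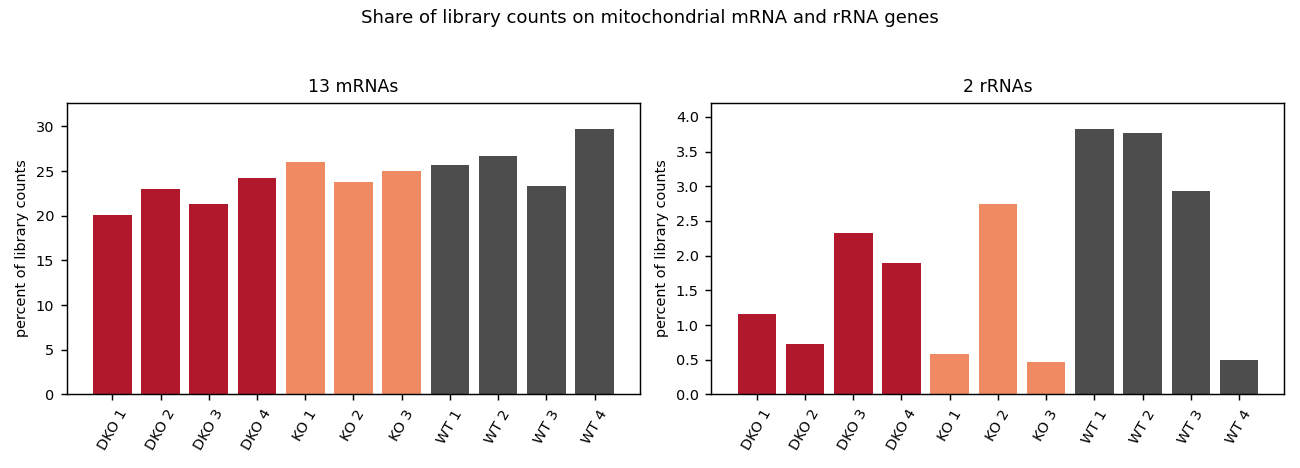
Percent of library counts on the 13 mitochondrial mRNAs (left) and the 2 rRNAs (right), 1 bar per library, in Raptor mTOR DKO, Raptor KO and WT. mRNA shares, without the nuclear copies, ran from 20.1% to 29.7%, whereas rRNA shares ran from 0.470% to 3.82% and were low in at least 1 library of each genotype.

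Within the mRNA pool, mt-Nd4 (a core subunit of complex I) took the largest share of counts, 29.0% ± 1.55 in DKO, 30.8% ± 1.51 in KO and 29.4% ± 2.52 in WT (SD, n = 4, 3 and 4). mt-Cytb, the only mitochondrially encoded subunit of complex III, took 16.2% ± 0.267 in DKO, 16.9% ± 0.457 in KO and 15.96% ± 1.23 in WT. mt-Nd6, the sole mRNA from the other strand, had only 12 to 55 counts per library. On the deposited per-length scale (TPM) mt-Nd4 was again highest, at 43976 ± 3785 in DKO, 52017 ± 1546 in KO and 56015 ± 8899 in WT. On that scale mt-Co2 and mt-Co3, of complex IV, followed, with mt-Co2 at 40064 in DKO, 41999 in KO and 41191 in WT. These ranks hold for genes as deposited. Most counts shared by mt-Atp6 and its nuclear copy Gm10925, described below, were assigned to the copy. Without that copy mt-Atp6 averaged 13956 TPM in DKO, 13785 in KO and 11021 in WT. Its TPM rank with the copy added was not computed. Tags from a transcript's 3' end do not grow with its length, so per-length values understate long genes.

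Several mitochondrial mRNAs were lower in DKO than in WT muscle, the comparison the study's design text names first. Relative to the tested genes as a whole, 6 of the 13 mRNAs were called lower and none higher: mt-Nd1, mt-Nd2 and mt-Nd4 of complex I, mt-Cytb of complex III, mt-Co3 of complex IV and mt-Atp8 of ATP synthase. Each level was 1.37-fold to 1.92-fold lower in DKO than in WT. For comparison, 26.7% of 10505 tested genes were called in this contrast and 13.7% were called lower. The median log2 fold change was -0.46 over the 13 mRNAs and 0.02 over all tested genes, and 11 of the 13 were negative. Calls were made with edgeR's quasi-likelihood test at a Benjamini-Hochberg adjusted p under 0.05 over all genes.

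mt-Nd2, a complex I subunit of the proton-pumping membrane arm, had 13609.6, 12865, 19784 and 22637 CPM in DKO, against 39468, 39718, 28356 and 24805 in WT. Every DKO library was below every WT library, and the log2 fold change was -0.94 (SE 0.21, adjusted p = 0.0043). A less similar copy on chromosome 2, Gm13339, took up to 14.8% of the mt-Nd2 pair's counts in DKO, 13.7% in KO and 0.102% in WT, and with those counts added the log2 fold change was -0.88 (SE 0.18, adjusted p = 0.0016). mt-Nd4, another subunit of that arm, had 49837, 62385, 61951 and 66983 CPM in DKO, against 78583, 86241, 67239 and 112771 in WT. The groups again did not overlap, though DKO replicate 4 and WT replicate 3 were close, and the log2 fold change was -0.52 (SE 0.14, adjusted p = 0.0129). mt-Cytb had 28012, 35513, 32566 and 39169 CPM in DKO, against 41397, 45422, 40742 and 58380.2 in WT. Its groups did not overlap, with a log2 fold change of -0.46 (SE 0.13, adjusted p = 0.0161). These 3 were the mRNAs whose DKO libraries all lay below WT, where 13.6% of tested genes did so.

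mt-Nd1, the complex I subunit nearest the quinone site, had 19313, 24662, 20124 and 27349.6 CPM in DKO, against 33429.9, 35887, 25873 and 43428 in WT. Only DKO replicate 4 exceeded the lowest WT library, replicate 3, and the log2 fold change was -0.60 (SE 0.15, adjusted p = 0.0081). mt-Co3, which encodes a core complex IV subunit, had 24985, 28279.7, 23765 and 30779.6 CPM in DKO, against 33931, 35768, 29653 and 51771 in WT. One DKO library overlapped the WT range, and WT replicate 4 lay far above the rest (log2 fold change -0.49, SE 0.15, adjusted p = 0.0245). mt-Atp8, a small subunit of the ATP synthase membrane part, had 1015, 1158, 1010.3 and 1359.8 CPM in DKO, against 1707, 1904, 1724 and 1145 in WT. Here WT replicate 4 was low, at the level of the DKO libraries, and the log2 fold change was -0.51 (SE 0.15, adjusted p = 0.0191). WT replicate 4 was thus the highest WT library for mt-Nd1, mt-Nd4, mt-Cytb and mt-Co3, and the lowest for mt-Nd2, mt-Atp8, mt-Nd6 and both rRNAs.

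The other 7 mRNAs were not called as deposited. mt-Co2, the complex IV subunit that receives electrons from cytochrome c, averaged 25718 ± 3391 CPM in DKO and 29373 ± 2768 in WT (log2 fold change -0.19, SE 0.12, adjusted p = 0.251). mt-Nd5, of complex I, averaged 3137 ± 551 in DKO and 3914 ± 673 in WT (log2 fold change -0.32, SE 0.15, adjusted p = 0.122). mt-Nd6 averaged 7.96 ± 4.37 in DKO and 8.15 ± 4.80 in WT, at a depth that left its 95% interval at -0.95 to 0.999 (log2). The remaining 4, mt-Co1, mt-Atp6, mt-Nd3 and mt-Nd4l, are those with near-identical nuclear copies that received counts.

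**Figure D2:**
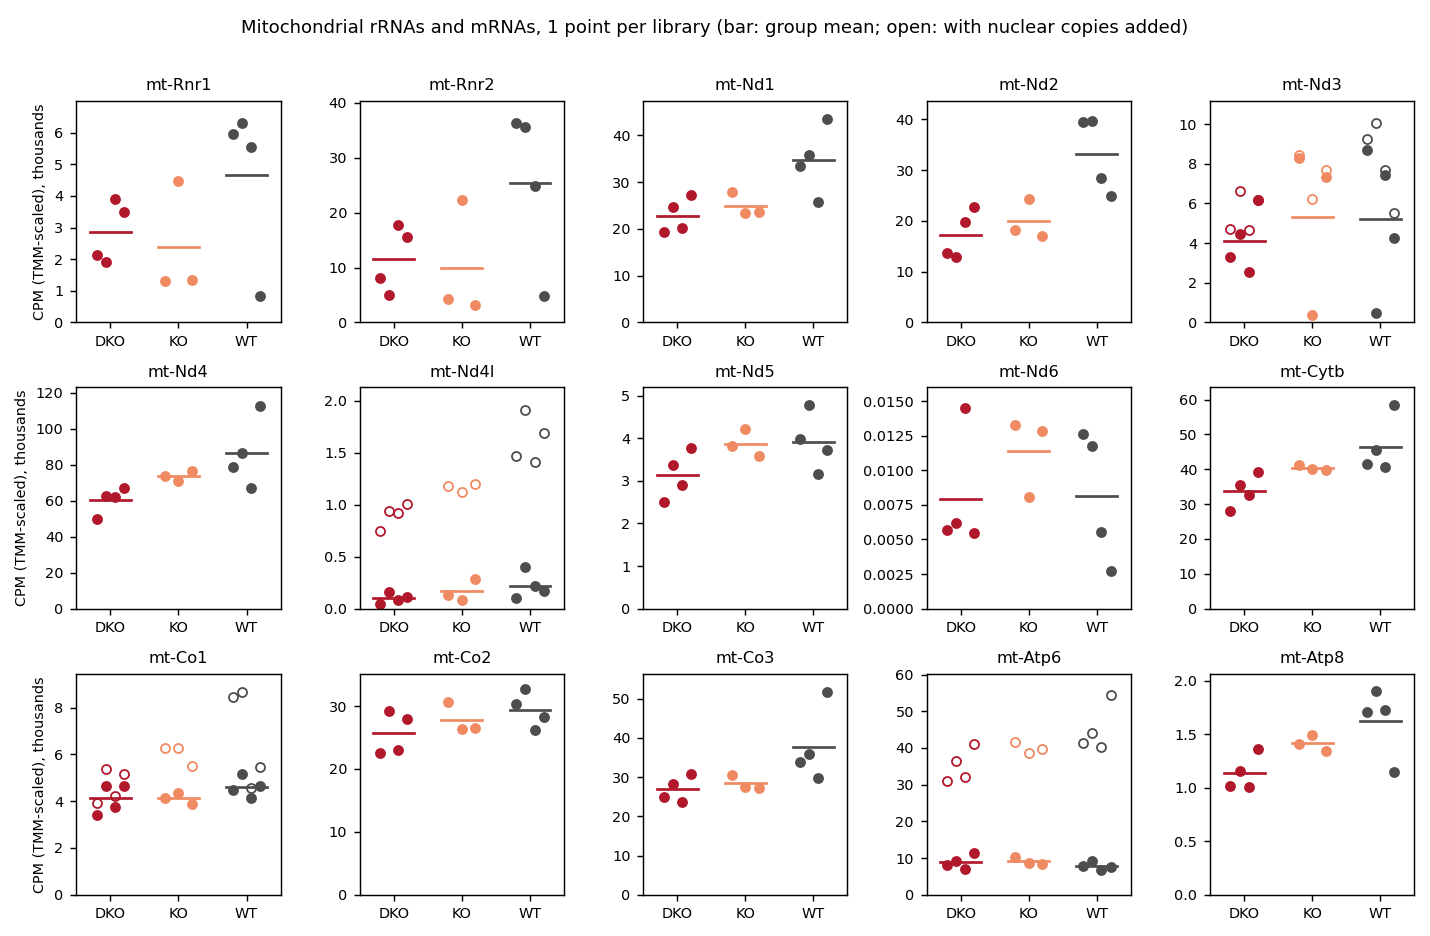
CPM (each panel with its own axis from 0) of the 2 rRNAs and 13 mRNAs in every DKO, KO and WT library; bars are group means and open circles add the counts of the nuclear copy. For mt-Nd2, mt-Nd4 and mt-Cytb all 4 DKO points lie below all 4 WT points, and the mt-Nd4l points do so once the copy is added.

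A block on chromosome 1 (chr1:24611535-24616197 on GRCm38, minus strand) holds 7 unprocessed pseudogenes that match mitochondrial genes at 99% identity or more over at least 90% of the copy. For 4 genes the deposited counts were shared with such a copy. Gm10925, identical to mt-Atp6 over 678 bases, held 72.5% to 77.9% of the pair's counts in DKO, 75.3% to 79.1% in KO and 79.5% to 86.2% in WT. Gm10222, identical to mt-Nd4l over 294 bases, held between 76.4% and 93.7% over the 11 libraries. Gm29216, which matches the last 483 bases of mt-Co1 with the single difference A1066T (counted from the first base of mt-Co1), held 10.1% to 13.2% in DKO, 29.7% to 33.8% in KO and 9.06% to 47.2% in WT. Identical copies of mt-Co2 and mt-Co3, and one of the first 876 bases of mt-Nd4, had no count in any library.

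mt-Nd3, of complex I, showed the split most sharply. KO replicate 2 had 1382 mt-Nd3 counts and WT replicate 2 had 1396, against 9647 to 45356 in the other 9 libraries. Its copy Gm28438 held 21656 and 26785 counts in those same libraries, or 94.001% and 95.05% of the pair, and at most 45.4% elsewhere. The sum of the pair was 4824.5 to 8990.4 CPM of the library total in all 11, so the 2 libraries stood apart in mt-Nd3 but not in the sum. WT replicate 2 had the highest sum, next to 8804.8 in KO replicate 1. Why the split differed between libraries was not tested.

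**Figure D3:**
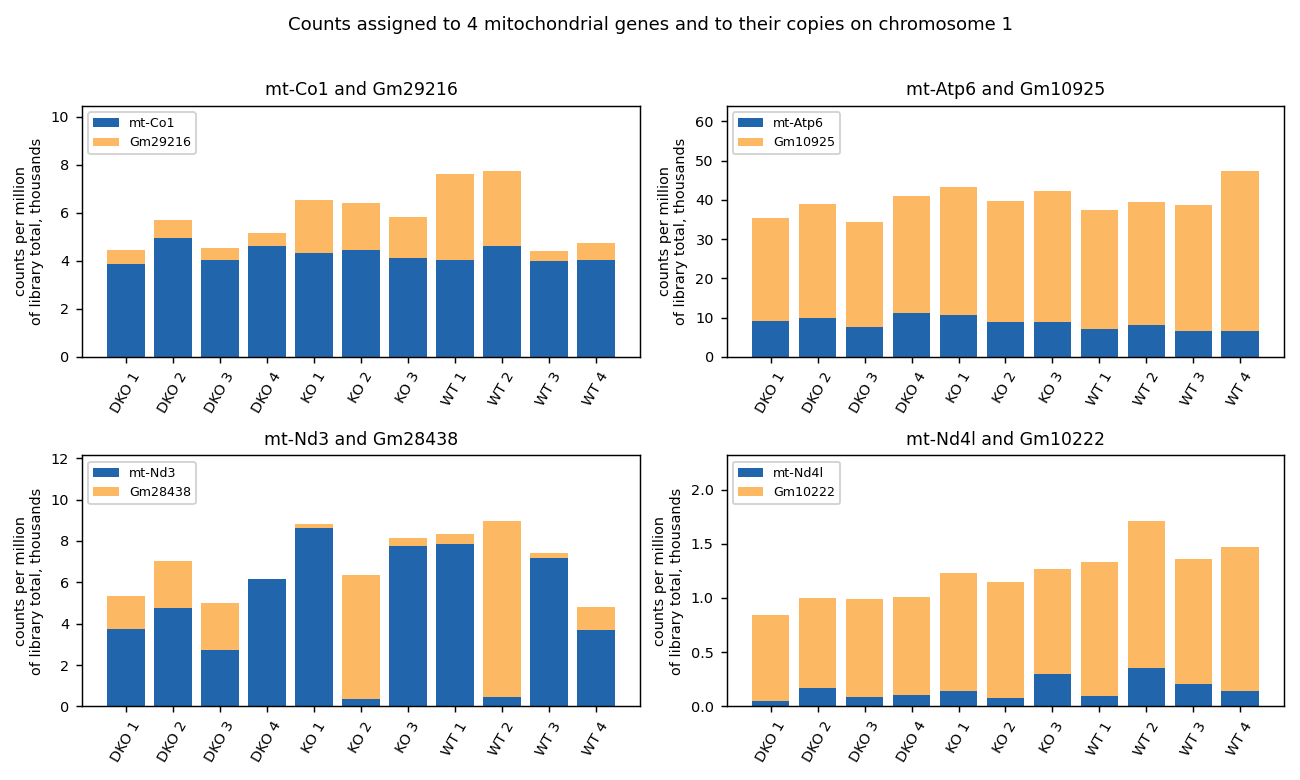
CPM of the library total assigned to mt-Co1, mt-Atp6, mt-Nd3 and mt-Nd4l (blue) and to their chromosome 1 copies (orange), stacked, in each DKO, KO and WT library. In KO replicate 2 and WT replicate 2 the mt-Nd3 bar is nearly all Gm28438. Their stacked heights are 6366 and 8990 CPM, the latter the highest of all libraries and next to 8805 in KO replicate 1.

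With the counts of the 7 copies added to their mitochondrial genes, a choice made after seeing the data, 10 of 13 mRNAs were lower in DKO than in WT by edgeR's test and none higher, where 13.7% of 10501 genes were called lower. mt-Nd4l, a small complex I subunit, then had 744, 942, 920.2 and 1006 CPM in DKO, against 1469.8, 1913, 1409 and 1690.4 in WT. All DKO libraries were below all WT libraries (log2 fold change -0.84, SE 0.13, adjusted p = 0.00014), a smaller adjusted p than for any mRNA as deposited. mt-Nd3 averaged 5533 ± 1014 in DKO and 8129 ± 1978 in WT (log2 fold change -0.55, SE 0.18, adjusted p = 0.0307). mt-Co1, the catalytic subunit of complex IV, averaged 4669 ± 706 in DKO and 6778 ± 2076 in WT (log2 fold change -0.54, SE 0.18, adjusted p = 0.0420). WT replicates 1 and 2, at 8440.3 and 8650 CPM, were above all DKO libraries, while WT replicates 3 and 4, at 4555 and 5467, lay within or next to the DKO range of 3916 to 5372. Of the 19 fits with copies added, mt-Co1 was called in 6, mt-Atp6 in 7 and mt-Nd3 in 9, against 18 for mt-Nd4l. mt-Atp6, the proton-channel subunit of ATP synthase, turned in direction: as deposited it averaged 8931 ± 1805 CPM in DKO and 7824 ± 951 in WT (log2 fold change 0.19), and with its copy 35172 ± 4589 in DKO and 45024 ± 6499 in WT (log2 fold change -0.36, SE 0.12, adjusted p = 0.0412). mt-Co2, mt-Nd5 and mt-Nd6 stayed uncalled.

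How many of these calls held depended on scaling and on which mice were compared. Scaled by library totals alone, all tested genes shifted by a median of 0.24 (log2) in DKO against WT, the mRNA median was -0.23, and 2 mRNAs (mt-Nd1 and mt-Nd2) were lower and mt-Atp6 higher. With Xist as a covariate 1 mRNA, mt-Nd2, was called lower (2 with copies added), with a median of -0.32; in the libraries without Xist, which are 1 DKO and 3 WT, none was called and the median was -0.33. Without the smaller run 4 were lower, and without DKO replicate 1, which was the lowest DKO library for mt-Nd1, mt-Nd4 and mt-Cytb, 3 were.

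The 13 mRNAs did not differ detectably between DKO and KO muscle, the other comparison named in the design text. None was called, where 0.0286% of the 10505 tested genes were (0.00952% higher and 0.019% lower, with the same shares once copies were added), and none had an unadjusted p under 0.05 by edgeR; the DESeq2 Wald test also called none. All 13 log2 fold changes were negative, with a median of -0.26 against 0.01 over all genes. For mt-Nd4 the DKO libraries, at 49837 to 66983 CPM, all lay below the KO libraries at 73740.3, 70666 and 76463, with a log2 fold change of -0.29 (95% interval -0.61 to 0.03, adjusted p = 0.575). mt-Cytb likewise did not overlap, at 28012 to 39169 CPM in DKO, against 41111, 40222 and 39813 in KO (log2 fold change -0.26, 95% interval -0.55 to 0.04, adjusted p = 0.590). These were the mRNAs without overlap as deposited, 2 of 13, where 7.04% of tested genes were lower without overlap and 5.21% higher. mt-Nd2 differed little between these groups relative to its spread, with a log2 fold change of -0.21 (95% interval -0.69 to 0.27). With copies added none was called, but mt-Nd3 and mt-Nd4l had an unadjusted p under 0.05, with mt-Nd4l at -0.37 (SE 0.14, adjusted p = 0.372). All DKO libraries then lay below all KO libraries for 4 of 13 mRNAs: mt-Nd4, mt-Cytb, mt-Nd4l and mt-Co1. mt-Co1 with its copy had 3916 to 5372 CPM in DKO and 5497 to 6259 in KO (log2 fold change -0.36, SE 0.20). The share of all genes without overlap was not computed with copies added. Among libraries without Xist, 1 DKO against 3 KO, the mRNA median was 0.02.

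Between KO and WT, mt-Nd2 alone was called among the mRNAs as deposited, and it was lower in KO. It had 18257, 24356 and 17054 CPM in KO, against 39468, 39718, 28356 and 24805 in WT, so the groups did not overlap, although KO replicate 2 lay close to WT replicate 4. The log2 fold change was -0.73 (SE 0.23, adjusted p = 0.0386), where 9.43% of tested genes were called lower, 8.73% higher and 18.2% in either direction. Without regard to the test, 13.2% of tested genes were lower without overlap, 14% higher and 27.3% either. The median over the 13 mRNAs was -0.19 against 0.00 over all genes, and 10 were negative. mt-Nd1 (-0.47, SE 0.17, adjusted p = 0.0589) and mt-Co3 (-0.41, SE 0.16, adjusted p = 0.0953) missed the threshold. mt-Nd5, at 3875 ± 326 CPM in KO and 3914 ± 673 in WT, was at -0.01 with a 95% interval of -0.35 to 0.32.

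With copies added, mt-Nd4l was also called lower in KO, where 9.45% of genes were lower and 8.73% higher, at 1179, 1120.4 and 1195 CPM in KO, against 1469.8, 1913, 1409 and 1690.4 in WT (log2 fold change -0.48, SE 0.14, adjusted p = 0.0254). Its 3 KO libraries lay between the 4 DKO libraries and the 4 WT libraries with no overlap on either side. The count of mRNAs called as deposited was 0 without KO replicate 1, KO replicate 3, WT replicate 1 or WT replicate 2, and 3 without WT replicate 3; with library totals the only call was mt-Atp6, higher in KO, under an all-gene median of 0.20. Both knock-out groups were compared with the same 4 WT libraries, so their values against WT are not independent.

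**Figure D4:**
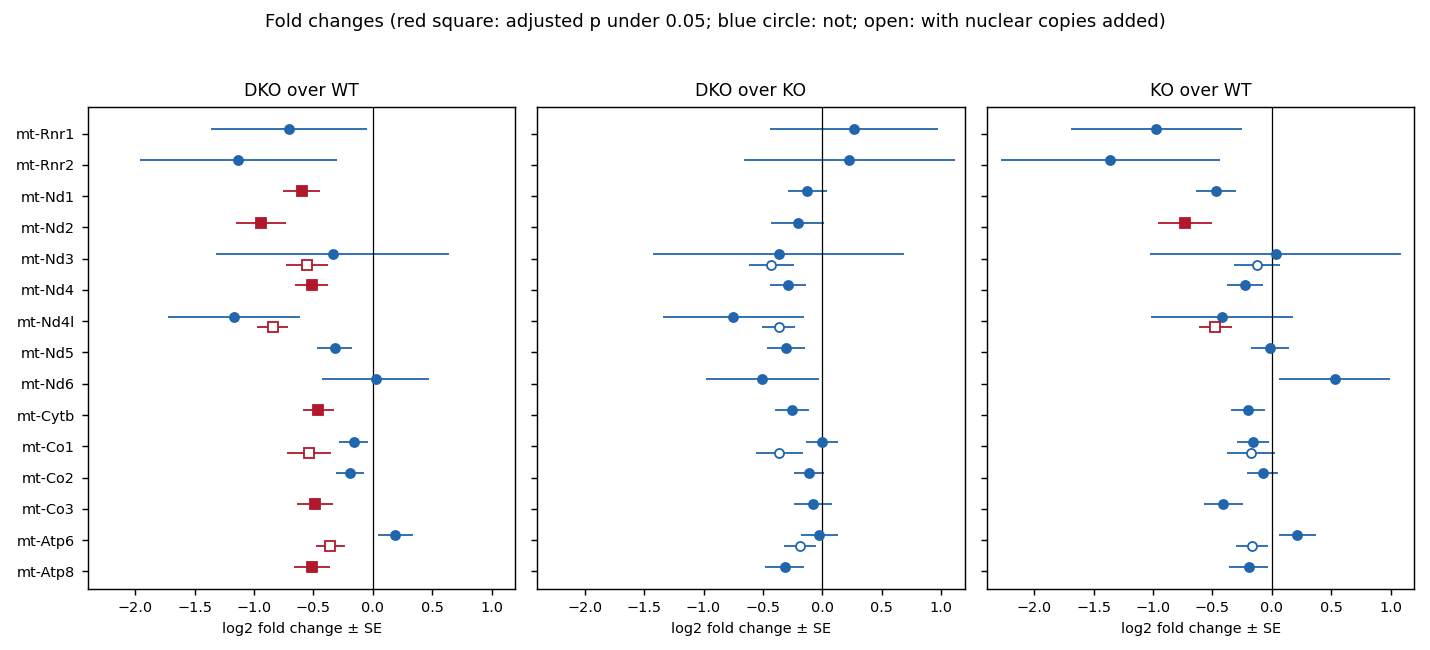
log2 fold change with its standard error for each rRNA and mRNA, DKO over WT, DKO over KO and KO over WT, from edgeR's fit over all 11 libraries; red squares have an adjusted p under 0.05 and open symbols add the nuclear copies. The mRNA symbols in the left panel lie between -1.17 and 0.19, and the 2 rRNAs carry errors several times those of most mRNAs.

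The rRNAs of the mitochondrial ribosome varied widely within each genotype, and neither was called in any comparison. mt-Rnr2, the 16S rRNA of the large subunit, had 8055, 4944, 17834 and 15523 CPM in DKO, 4295, 22322 and 3101 in KO, and 36354, 35642, 24799.8 and 4811 in WT. Every WT library but replicate 4 was above every DKO and KO library, and replicate 4 was below all 4 DKO libraries. The log2 fold change was -1.13 for DKO over WT (95% interval -3.04 to 0.77, adjusted p = 0.364), -1.36 for KO over WT (-3.47 to 0.75, adjusted p = 0.357) and 0.23 for DKO over KO (-1.81 to 2.27, adjusted p = 0.966). mt-Rnr1, the 12S rRNA of the small subunit, had 2144, 1918, 3894 and 3484 CPM in DKO, 1325, 4479 and 1329 in KO, and 5956, 6322, 5539 and 836 in WT. Its log2 fold changes were -0.71 (SE 0.65) for DKO over WT, -0.97 (SE 0.72) for KO over WT and 0.27 (SE 0.71) for DKO over KO. No unadjusted p for an rRNA was under 0.05, and intervals of this width allow large differences in either direction.

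The 2 rRNAs followed each other across the 11 libraries, with a Pearson r of 0.95 on log2 CPM (permutation p = 1e-05, the smallest that 100000 resamples can give) and a Spearman rho of 0.95 (permutation p = 3e-05). Without KO replicates 1 and 3, the libraries farthest from the median of mt-Rnr2, r was 0.95, and within the 9 libraries of the larger run it was also 0.95. Of the 13 mRNAs set against mt-Rnr2, 4 of them with copies added, mt-Nd2 gave the highest r, 0.77 (permutation p = 0.0071, adjusted over the 13 p = 0.0918) with a rho of 0.74 (permutation p = 0.0122, adjusted p = 0.159). That relation therefore failed the correction. It was 0.78 without KO replicates 1 and 3, 0.80 within the larger run and 0.85 after group means were removed. mt-Nd4 and mt-Cytb, the other mRNAs without overlap between DKO and WT, gave r of -0.05 and -0.01 (adjusted permutation p = 0.977 for each).

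**Figure D5:**
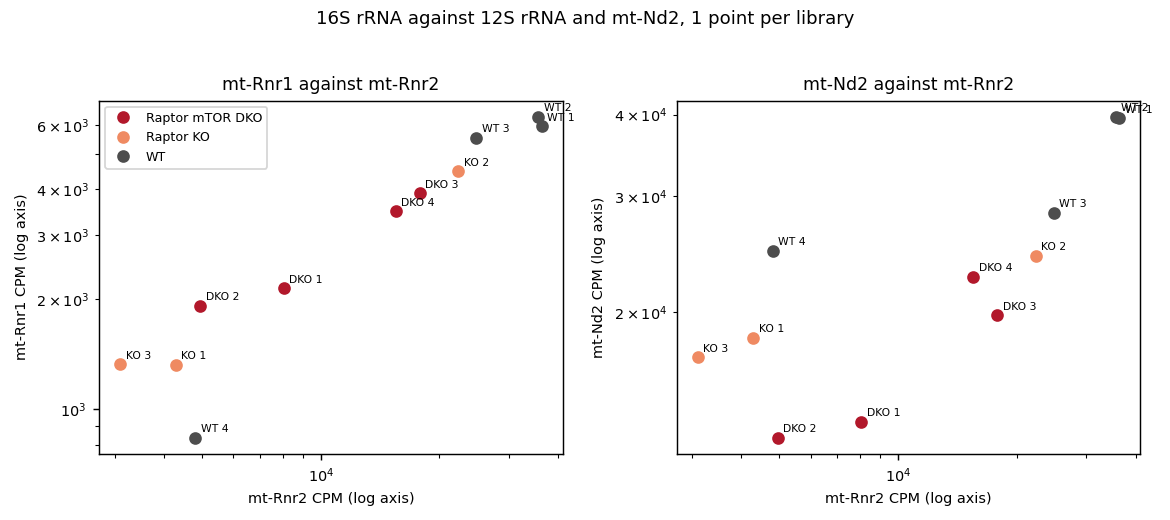
mt-Rnr1 (left) and mt-Nd2 (right) against mt-Rnr2, CPM on log axes, 1 point per library, in Raptor mTOR DKO, Raptor KO and WT. Both rRNAs rise together (r 0.95) across genotypes. mt-Rnr2 is similar in DKO replicate 2, KO replicate 1 and WT replicate 4, at 4944, 4295 and 4811 CPM. Their mt-Nd2 levels are 12865, 18257 and 24805 CPM. Of the counts on mt-Nd2 and Gm13339, Gm13339 held 14.8%, 11.2% and 0.097% in these libraries. They are single libraries, and a genotype difference at matched mt-Rnr2 was not tested.

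The tRNAs were not measured in any useful sense: 21 of 22 had no count, and mt-Tl1 (leucine) had 1, in WT replicate 3. A count of 0 allows up to 0.848 to 1.07 CPM in DKO libraries, 0.797 to 0.931 in KO and 0.474 to 0.957 in WT. The library kit starts from poly(A), which mature tRNAs lack.

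Among 83 nuclear genes for transcribing, maintaining, processing and translating mitochondrial genomes and RNAs, 76 were tested, and in DKO against WT 4 were called higher and 10 lower. Their median log2 fold change was -0.12 against 0.02 over all genes, and 18.4% were called, where 26.7% of all tested genes were. Of the initiation factors, Tfb2m averaged 22.5 ± 3.39 CPM in DKO and 46.1 ± 11.8 in WT (log2 fold change -1.03, SE 0.19, adjusted p = 0.00095). Slc25a33, an inner-membrane carrier of pyrimidine nucleotides, averaged 2.73 ± 1.057 in DKO and 9.95 ± 2.43 in WT (log2 fold change -1.84, SE 0.30, adjusted p = 0.00032). Mterf3, an mTERF-family factor, was also lower, at 1.13 ± 0.513 CPM in DKO and 3.47 ± 1.56 in WT (-1.55, SE 0.45, adjusted p = 0.0169). Its DKO level was near the limit for a count of 0, and it was called in 17 of 24 alternative fits. In translation and membrane insertion, C1qbp averaged 157 ± 17.001 in DKO and 97.4 ± 6.79 in WT (log2 fold change 0.69, adjusted p = 0.00043) and Oxa1l, the inner-membrane insertase, 48.7 ± 5.34 in DKO and 27.6 ± 3.62 in WT (0.82, adjusted p = 0.00056), while Letm1 and Gfm2, a ribosome recycling factor, were lower. In RNA processing, Ptcd1 and the pseudouridine synthase Rpusd4 were higher, and Fastkd1 and Angel2 lower. These calls were not equally firm. Of 25 alternative fits, Gfm2 was called in 7, Angel2 in 13, Fastkd1 in 15 and Letm1 in 17. C1qbp, Oxa1l and Ptcd1 were each called in 24, and Rpusd4 in 20.

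Unlike Tfb2m, the other genes of the core transcription and polyadenylation machinery named above did not pass: Tfam averaged 40.8 ± 5.07 CPM in DKO and 42.9 ± 7.73 in WT, Polrmt 13.1 ± 1.99 in DKO and 13.4 ± 6.19 in WT, Mtpap 11.5 ± 3.01 in DKO and 10.2 ± 2.12 in WT, and Lrpprc 80.4 ± 13.3 in DKO and 107 ± 55.1 in WT. In KO against WT 2 of the 76 were higher (C1qbp at 0.68 and Oxa1l at 0.66) and 2 lower (Slc25a33 at -1.67 and Tfb2m at -0.76, all log2), or 5.26% called, where 18.2% of all tested genes were. In DKO against KO none was called, as by the DESeq2 Wald test. Under library totals the split between DKO and WT became 12 higher and 3 lower, whereas DESeq2 size factors gave 4 higher and 11 lower, so the balance of directions in this list depends on the scaling.

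Of 78 nuclear-encoded subunits of complexes I, III, IV and V, the partners of the mitochondrial products, 3 were higher and 10 lower in DKO than in WT, with a median of -0.09. That is 16.7% called, where 26.7% of all tested genes were, so calls were no more frequent here than over all genes. In complex IV, the Cox6a isoforms moved in opposite directions. Cox6a2, the heart and muscle isoform, averaged 1284 ± 63.4 CPM in DKO and 2255 ± 426 in WT (-0.81, edgeR adjusted p = 0.00020). The widely expressed Cox6a1 averaged 53.7 ± 6.04 in DKO and 25.5 ± 7.44 in WT (1.063, adjusted p = 0.00038). Cox8a, also the widely expressed isoform, averaged 133 ± 12.9 in DKO and 47.4 ± 6.97 in WT (1.48, adjusted p = 1.6e-06). Only Cox6a2 and Cox5a of complex IV were called lower, so Cox8b, also listed, was not. In complex I, Ndufb2 and 4 others were lower and none higher, and in DKO against KO no subunit of the 78 was called. In KO against WT 4 were higher and 1 lower, namely Cox6a2 at -0.72 (SE 0.14, adjusted p = 0.0019), which is 6.41% called, where 18.2% of all tested genes were.

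Markers of slow fibres, macrophages and fibroblasts also differed between the genotypes, where 26.7% of all tested genes were called in DKO over WT and 18.2% in KO over WT. Slow fibre genes summed to 919 to 1839 CPM in DKO, 1274 to 1449 in KO and 339.7 to 589 in WT, and all 5 were called higher in both knock-out groups. Macrophage genes (9) summed to 163 to 246 in DKO, 119.6 to 248 in KO and 66.99 to 119 in WT, with 6 called higher in DKO over WT and 5 in KO over WT. Fibroblast genes (6) summed to 1761 to 2222 in DKO, 1586 to 1761 in KO and 802 to 1413 in WT, with 4 and 3 called higher. In DKO over WT none of 6 endothelial, 4 adipocyte, 5 erythroid and 2 neutrophil markers was called, and in KO over WT 1 erythroid marker was, and it was higher. No marker of these lists was at 0 in a group, and the part of these cells in the mitochondrial values was not tested.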

How the data were processed

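QuantSeq 3' tags were measured in 11 gastrocnemius libraries. The deposited expected counts are RSEM estimates per gene made by the authors; RSEM 1.3.3, the aligner STAR 2.7.0, the read trimmer fastp 0.20.0 and the build GRCm38 (mm10) are named per the submitters' processing notes, and the deposited TPM values divide them by gene length. The strand setting of counting and the annotation release are not given in the sources used here. mt-Atp8 and mt-Atp6, mt-Nd4l and mt-Nd4, and mt-Nd5 and mt-Nd6 overlap, so their counts could be split between neighbours. Such neighbours were still counted as separate mRNAs, so their values are not independent. Expected counts were rounded to whole numbers, and 2.25% of values were not whole. 6 columns matched no label and were not used. No pair of libraries agreed within sampling noise (lowest chi-square per degree of freedom 3.04).

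edgeR 4.0.16 (R 4.3.3) fitted all 11 libraries in one quasi-likelihood model after filterByExpr and TMM, and p-values were Benjamini-Hochberg adjusted over 10505 genes with a threshold of 0.05. The biological coefficient of variation was 20.6%. Alternatives used DESeq2 1.42.0 and limma 3.58.1 (log2 of TPM plus a pseudocount of 1 or 0.1). Nuclear copies were found with blastn 2.17.0, and adding their counts was chosen after seeing the data. Any matches on a further autosome were left out, whatever their identity and coverage, so the set of copies may be incomplete. The genes described and the gene lists were chosen with earlier results of these data known. Named genes are all mt- genes, Polrmt, Tfam, Lrpprc and Mtpap, and from the other lists up to 4 with the smallest adjusted p under 0.05. The fit was tested on simulated data. Intervals and limits of 0 counts (3 counts of the total) cover counting error only.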

Additional observations from a re-analysis of the deposited data

Results flagged for a closer look

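A sample far from the others of its group occurred in 2 of the 44 combinations of value and group with 4 libraries that were tested. Chance gives about 1 in 20. The values were gene levels, some also with copies added, and shares of library counts, so the combinations overlap and are not separate genes. mt-Nd6 stood at 14.5 CPM in DKO replicate 3, against 5.50 to 6.17 CPM in the other DKO libraries. mt-Rnr1 stood at 836 CPM in WT replicate 4, against 5539 to 6322 CPM in the other WT libraries.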

How the results depend on the processing

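The DKO against KO comparison gave 0 mitochondrial mRNAs called under every setting run, and the rRNAs gave 0 in all 3 comparisons. For DKO against WT, 6 mRNAs were called. That count became 3 with library totals (1 higher, mt-Atp6), 1 with library sizes set to the mitochondrial mRNA sum (higher; this scaling holds the overall change of the mRNAs near 0 by construction and tests their change relative to each other), 1 with Xist as a covariate, 0 in libraries without Xist and 0 with limma on unfiltered TPM. Leaving out 1 library gave 3 to 7, with 3 lacking DKO replicate 1. Under the mRNA-sum scaling, where the median of all genes was 0.49, mt-Co3 was at 0.013, mt-Cytb at 0.023 and Gfm2 at 0.018 (log2).

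With copies added, chosen after seeing the data, the count was 10, and also 10 with Gm13339 added to mt-Nd2 and 10 with scaling from genes off the mitochondrial chromosome. It was 3 with library totals, 2 with Xist as a covariate, 0 without Xist libraries and 2 with the mRNA sum, where mt-Co2 was at 0.29, mt-Co3 at 0.025 and mt-Cytb at 0.035. Leaving out 1 library then gave 4 to 10, with 4 lacking DKO replicate 1, 5 lacking DKO replicate 3 and 6 lacking WT replicate 2. mt-Atp6 was at -0.36 with copies, -0.36 with Gm13339 also added and -0.38 with scaling from genes off the mitochondrial chromosome, and between -0.43 and -0.27 without DKO replicate 4 (-0.43), WT replicate 1 (-0.38), WT replicate 3 (-0.40) or WT replicate 4 (-0.27). Those 7 fits are the ones that called mt-Atp6; the other 12 of 19 with copies added did not, with values up to 0.14 (mRNA sum) and an adjusted p of up to 0.118 on leaving out 1 library.

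For KO against WT, 1 mRNA was called, against 2 with DESeq2 size factors, 2 with its Wald test, 2 without a filter, 2 in libraries without Xist, 3 with Xist as a covariate, 1 (higher) with library totals, 1 (higher) with the mRNA sum and 0 in each TPM fit; leaving out 1 library gave 0 to 3. With copies added it was 2, likewise 2 with Gm13339 and 2 without the smaller run, 3 with scaling off the mitochondrial chromosome, 3 without Xist libraries, 4 with Xist as a covariate, and 0 with library totals or the mRNA sum, and 0 to 3 on leaving out 1 library (0 lacking KO replicate 1, KO replicate 3 or WT replicate 2, and 3 lacking WT replicate 3 or WT replicate 4).

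Of machinery genes in DKO against WT, 14 were called, against 15 with library totals (12 higher), 24 with the mRNA sum (23 higher), 11 with limma on TPM at either pseudocount (9 higher), 8 on unfiltered TPM (6 higher), 9 with only these groups, 9 without the smaller run, 8 with Xist as a covariate and 0 without Xist libraries. Leaving out 1 library gave 6 to 20: 8 lacking DKO replicate 1, 6 lacking DKO replicate 2 and 9 lacking WT replicate 1. In KO against WT, 4 were called, against 8 with library totals and 7 with the mRNA sum. The cause of these changes was not tested. No paired analysis was possible because replicate numbers only follow accession order. The libraries without Xist leave 1 DKO mouse, assumed to vary like the other groups, and mt-Nd6 and the tRNAs are limited by depth.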

Other observations

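Gm13339, on chromosome 2 of GRCm38, matches the last bases of mt-Nd2 at 96.7% identity. It had 2761, 8328, 114 and 157 counts in DKO, 8999, 122 and 9246 in KO, and 113, 114, 141 and 107 in WT. The high libraries, DKO replicates 1 and 2 and KO replicates 1 and 3, were also the low rRNA libraries of the knock-out groups, while WT replicate 4, low in rRNA, had 107. With these counts and the other copies added, mt-Nd2 was at -0.88 (log2) in DKO over WT (edgeR adjusted p = 0.0016) and -0.62 in KO over WT (adjusted p = 0.0346), so both calls held; this addition was chosen after seeing the data.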
